A study of Mus musculus with 6 samples.

Results

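This is an account of 10 genes of the NRF2 and KEAP1 system, taken by symbol from a table of 53465 genes measured in M II oocytes of aged mice, and of whether the target genes of NRF2 were higher together after quercetin. The genes are the transcription factors *Nfe2l2*, which encodes NRF2, and *Nfe2l1*, the sensor *Keap1*, the small MAF partners *Mafg* and *Mafk*, the repressor *Bach1*, the targets *Hmox1*, *Nqo1* and *Srxn1*, and *Hmox2*, the constitutive relative of *Hmox1*. Every one of them was in the table under 1 Ensembl identifier, and 6 had enough reads to be tested.

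RNA was sequenced from 6 pools of oocytes of Kunming (KM) females aged 9 to 10 months. Of these, 3 were matured in vitro in M16 medium without quercetin (control) and 3 in M16 medium with 10 μM quercetin, a plant flavonol. Each pool combined 15 oocytes of 3 mice, taken after 16 h of in vitro maturation (IVM), so a value describes a pool and not an oocyte or a mouse, and nothing in the sources used here ties a pool to particular animals. The spread between pools is therefore the only error available. Quercetin was dissolved in DMSO, and whether the control medium held DMSO is not given in the sources used here.

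NRF2 is a basic leucine zipper transcription factor. In unstressed cells KEAP1 binds it and presents it to a CUL3 ubiquitin ligase for degradation. Electrophiles and oxidants modify cysteines of KEAP1, NRF2 then accumulates, pairs with a small MAF protein and binds antioxidant response elements (AREs), while BACH1 pairs with the same MAF proteins and represses part of the same genes until heme displaces it. Quercetin is often studied as an activator of this pathway in somatic cells. Because NRF2 is controlled mainly as a protein, its activity is usually read from its targets, and M II oocytes transcribe little, so that their mRNA is largely a stored maternal pool.

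The core of the ARE, TGACNNNGC, was searched for on both strands of the RefSeq promoter windows on GRCm38.p6, each from 250 bases before to 50 bases after a gene's start. So was TGAGTCA, the site of AP-1 factors that is often part of an ARE and may overlap it. Windows were found for 9 of the 10 genes, 15 windows in all. *Nfe2l1* and *Hmox2* had several windows, some of which overlap, and the others had 1 each. The ARE core was in 4 of the 15 windows, 1 each of 4 genes (*Nfe2l2*, *Mafg*, *Mafk* and *Srxn1*), while 12.4% of all 32851 windows held it, and TGAGTCA was in the window of *Srxn1* alone among them against 5.2% of all windows. By gene, the core was found for 4 of the 9, beside 11 of 34 genes with windows in a wider list of NRF2 targets. TGAGTCA was found for 1 of the 9 and 6 of the 34. A match to these letters is a description of the window and not a measured binding site.

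The windows of the following genes are shown because they cover a regulator with one of the highest levels, a regulator that was present in some pools and nearly absent in others, a target without a single read, and a target with many reads. Capitals mark matches to the ARE core or to TGAGTCA on either strand.
*Nfe2l2*, chr2:75704614-75704913, minus strand: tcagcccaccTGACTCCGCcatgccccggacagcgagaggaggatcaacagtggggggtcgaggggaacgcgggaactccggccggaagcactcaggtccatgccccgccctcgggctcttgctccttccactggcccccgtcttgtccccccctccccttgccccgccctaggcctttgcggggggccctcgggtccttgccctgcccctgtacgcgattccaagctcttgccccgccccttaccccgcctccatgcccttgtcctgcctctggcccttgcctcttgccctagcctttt
*Mafg*, chr11:120633498-120633797, minus strand: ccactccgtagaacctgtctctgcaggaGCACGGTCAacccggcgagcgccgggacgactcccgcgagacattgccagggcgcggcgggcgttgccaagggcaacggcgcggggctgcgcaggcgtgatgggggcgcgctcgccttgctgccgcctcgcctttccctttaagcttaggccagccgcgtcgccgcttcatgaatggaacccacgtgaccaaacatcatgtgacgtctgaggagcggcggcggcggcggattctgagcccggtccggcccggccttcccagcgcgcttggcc
*Srxn1*, chr2:152105274-152105573, plus strand: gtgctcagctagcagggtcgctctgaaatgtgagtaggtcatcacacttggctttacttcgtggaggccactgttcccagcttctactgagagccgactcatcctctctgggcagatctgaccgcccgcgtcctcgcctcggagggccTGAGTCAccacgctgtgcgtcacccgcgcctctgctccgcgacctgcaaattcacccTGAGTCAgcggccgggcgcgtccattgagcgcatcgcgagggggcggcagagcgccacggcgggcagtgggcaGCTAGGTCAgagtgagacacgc
*Nqo1*, chr8:107403156-107403455, minus strand: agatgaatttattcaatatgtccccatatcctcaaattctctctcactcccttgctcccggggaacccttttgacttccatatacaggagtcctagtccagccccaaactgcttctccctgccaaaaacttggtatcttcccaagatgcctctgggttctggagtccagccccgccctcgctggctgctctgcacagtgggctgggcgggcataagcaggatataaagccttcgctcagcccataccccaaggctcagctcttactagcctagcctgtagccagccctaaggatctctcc
The match in *Nfe2l2* begins 240 bases before the start and the match in *Mafg*, on the other strand, 222 bases before it. *Srxn1* has TGAGTCA at 102 and at 45 bases before its start, and an ARE core on the other strand 28 bases after it. The *Nqo1* window holds neither.

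Total counts ran from 7880467 to 9938743 per pool, and a gene at 3 counts, the floor used here, lay at 0.302 to 0.381 CPM (reads per 1e6 reads), a floor that covers counting error only. Quercetin was compared with control across 11842 genes by edgeR's quasi-likelihood test, and 0 of them (0%) had a Benjamini-Hochberg adjusted p under 0.05. DESeq2 called 17 genes, edgeR's likelihood ratio test 18 and limma-voom 0. Without adjustment 477 genes (4.03%) had a p under 0.05, 2.14% higher and 1.89% lower with quercetin. One library mattered for this count, since 1563 of 12258 tested genes had an unadjusted p under 0.05 without quercetin replicate 3. Values of single genes are CPM scaled by edgeR's TMM method, and each fold change is quercetin over control.

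Of 10 oocyte markers, 9 had enough reads to be tested. The growth factor gene *Gdf9* and the zona pellucida gene *Zp3* were at percentiles 99.9 and 99.2 of all genes with reads by level per kilobase of exon. *Figla*, named after its values were seen, was not tested, at 2 to 12 counts per pool and percentile 59.3. Pools differed widely in *Zp3* (1670 to 6172 counts) and in *Zp2*, also named after its values were seen (1045 to 12980 counts). Of 12 cumulus and granulosa markers, 3 had enough reads to be tested (*Cyp19a1*, *Has2* and *Ptgs2*), while *Foxl2*, *Amh* and *Ptx3* had no read in any pool. The list summed to between 62.8 and 78.1 CPM in control pools and between 79.7 and 84.8 CPM in quercetin pools. *Cyp19a1*, the aromatase gene, made up most of it, at 64.3 ± 5.33 CPM in control and 74.6 ± 1.42 CPM in quercetin pools (SD, n = 3), and neither its levels nor the sums of the list overlapped between the groups, as was so for 5.42% of all tested genes with quercetin higher. *Lhcgr* and *Tnfaip6*, too low to be tested and named after their values were seen, had 0 counts in every control pool and 2 to 4 and 2 to 8 counts with quercetin. Of the list's remaining genes with reads, *Cyp11a1*, *Inha* and *Has2* had a higher mean with quercetin and *Fshr*, *Star* and *Ptgs2* a lower one. The groups overlapped for each of these, and the log2 fold change was 0.05 for *Has2* and -0.68 for *Ptgs2*. Of 8 blood, macrophage and endothelial markers, *Pecam1*, *Csf1r* and *Cd68* could be tested, the hemoglobin genes and *Cdh5* were at 0, and the sums ran from 41.7 to 50.3 CPM in control and from 44.9 to 49.9 CPM in quercetin pools. The part of these markers in the results was not tested. In bulk pools, fewer cells of a type and less RNA per cell cannot be told apart.

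NRF2 targets were not found to rise together with quercetin. None of the 6 testable members passed an adjusted p of 0.05 or an unadjusted p of 0.05 in edgeR's quasi-likelihood test, and none passed the adjusted threshold in DESeq2, edgeR's likelihood ratio test or limma-voom. Among the 3 targets, *Nqo1* was well expressed and its groups overlapped, *Hmox1* was at or near 0, and *Srxn1* had no read in any pool. With TMM scaling the quercetin pools were higher than the control pools for *Nfe2l2*, though not by library size alone, and lower for *Hmox2*, and neither gene passed the test. Such separation was found for 10.6% of all tested genes in either direction.

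**Figure D1:**
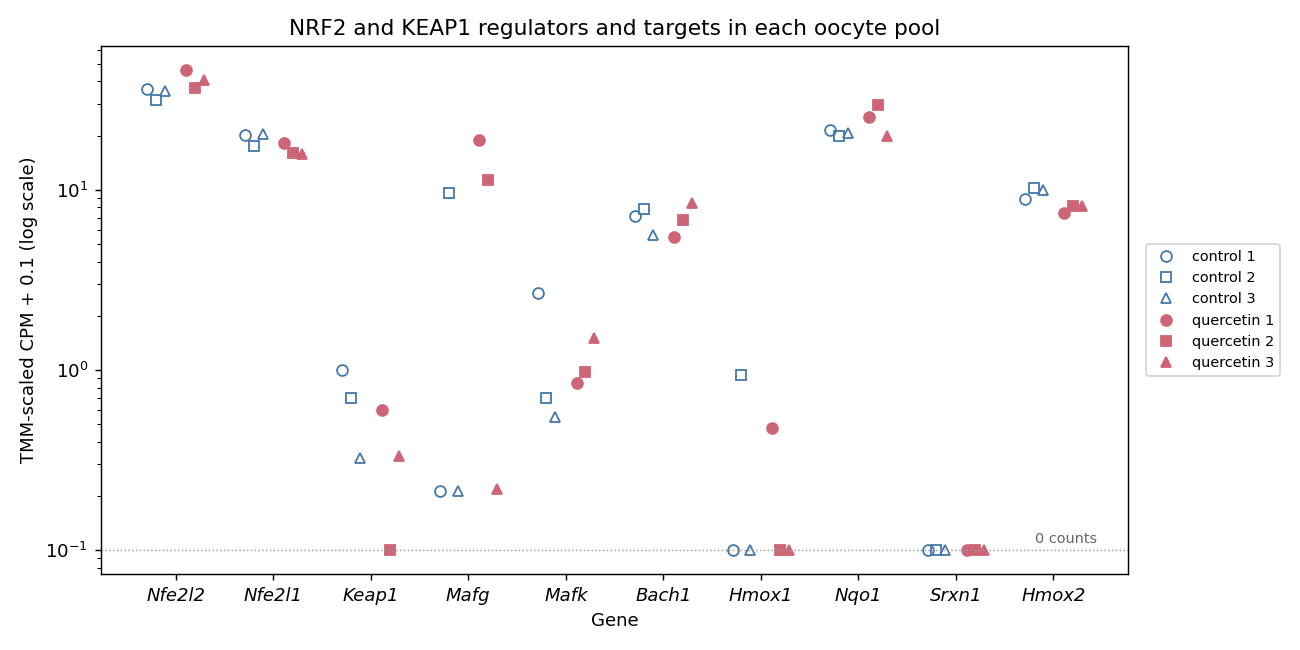
Level of each of the 10 genes in each pool, as TMM-scaled CPM plus 0.1 on a log axis, with open blue symbols for control and filled red symbols for quercetin pools, a circle, square and triangle for replicates 1, 2 and 3, and a dotted line for 0 counts. *Mafg* is split within both groups between about 0.1 CPM and 9.50 to 18.8 CPM, *Srxn1* is at 0 in every pool, and *Nqo1* lies between 19.8 and 29.6 CPM.

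*Nfe2l2* (ENSMUSG00000015839, GRCm38 chromosome 2 from 75675513 to 75704641, minus strand) had 322, 262 and 312 counts in the control pools and 369, 333 and 344 in the quercetin pools. In TMM-scaled CPM the control pools were at 36.1, 31.5 and 35.1 and the quercetin pools at 46.2, 36.5 and 40.5, so the groups did not overlap, by a margin of less than 1 CPM. Its log2 fold change of 0.26 (standard error 0.18) is a fold of 1.20 with a 95% interval from 0.904 to 1.59 (edgeR quasi-likelihood, Benjamini-Hochberg adjusted p = 0.988). The separation of the pools depended on the scaling. By library size alone, quercetin replicate 2 was at 33.5 CPM, under control replicates 1 and 3 at 37.1 and 35.0 CPM. Pools that do not overlap, with quercetin above control, were found for 5.42% of all tested genes.

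*Nfe2l1* (ENSMUSG00000038615, chromosome 11 from 96817414 to 96829968, minus strand) encodes a related factor, held in the endoplasmic reticulum, that drives proteasome genes when the proteasome is impaired. Its counts were 179, 145 and 180 in control pools, against 145, 146 and 133 with quercetin. Control pools were at 19.3 ± 1.58 CPM and quercetin pools at 16.6 ± 1.36 CPM (SD, n = 3), and the groups overlapped through control replicate 2 (17.4 CPM) and quercetin replicate 1 (18.2 CPM). By library size alone they did not overlap, at 18.4 to 20.6 CPM in control and 14.7 to 17.1 CPM with quercetin. The estimate of -0.21 on the log2 scale (standard error 0.20) had a 95% interval of the fold from 0.635 to 1.17. Its sign was opposite to that of *Nfe2l2*, and neither passed the test.

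*Keap1* (ENSMUSG00000003308, chromosome 9 from 21229730 to 21239361, minus strand), the sensor that holds NRF2 down, had few reads in the pools. It had 8, 5 and 2 counts in control pools against 4, 0 and 2 with quercetin, so it did not pass the filter on low counts, and 10.9% of its exon length overlaps *Gm16754* on the other strand. Control pools were at 0.225 to 0.898 CPM and quercetin pools at 0 to 0.501 CPM. Several of these values lie at or under the floor of 3 counts, and no difference was detectable at this depth. *Cul3* and *Rbx1*, which encode the scaffold and the RING subunit of the ligase that KEAP1 serves, are named for this role after their values were seen and had at least 320 and 3105 counts in every pool.

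*Bach1* (ENSMUSG00000025612, chromosome 16 from 87698945 to 87733346, plus strand) had 63, 64 and 49 counts in control pools against 43, 61 and 71 with quercetin. The means were 6.76 ± 1.12 and 6.81 ± 1.49 CPM (SD, n = 3), and both the lowest and the highest pool were quercetin pools. Its log2 fold change of 0.01 (standard error 0.27) had a 95% interval of the fold from 0.656 to 1.55, and its sign turned by library size alone (-0.065).

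The small MAF genes gave the widest spread. *Mafg* (ENSMUSG00000051510, chromosome 11 from 120625117 to 120633600, minus strand) had 1, 79 and 1 counts in control replicates 1, 2 and 3 and 150, 102 and 1 in quercetin replicates 1, 2 and 3. Each group thus held pools at 1 count and pools at 79 counts or more, with nothing between. On the log2 scale quercetin exceeded control by 1.64 with a standard error of 1.40, and the 95% interval of the fold ran from 0.349 to 27.9 (edgeR quasi-likelihood, Benjamini-Hochberg adjusted p = 0.988).

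Single pools decided the size of this value for *Mafg*. Without quercetin replicate 1 the log2 fold change was 0.83, and without control replicate 2 it was 6.31 (edgeR, unadjusted p = 0.00776, adjusted p = 0.9999), with the other fits that left out 1 pool between 1.07 and 2.22. A share of 2.21% of the exon length of *Mafg* overlaps *Sirt7*, which had 15 to 36 counts in every pool and was not split in this way. Among the 8507 genes with at least 50 counts in some pool, 9 genes, *Mafg* included, had in both groups a pool at 3 counts or fewer and a pool at 50 or more.

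*Mafk* (ENSMUSG00000018143, chromosome 5 from 139791513 to 139802653, plus strand) also had few reads. It had 23, 5 and 4 counts in control pools, against 6, 8 and 12 with quercetin. The groups overlapped, and *Mafk* did not pass the filter on low counts. In the 5 other fits that could test it the log2 fold change ran from -0.64 to -0.090, with a Benjamini-Hochberg adjusted p of 0.971 or more (edgeR). Of its exon length 4.33% overlaps *Tmem184a*, which had at most 3 counts in a pool. The third small MAF gene, *Maff*, named after its values were seen, had no read in any pool.

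*Nqo1* (ENSMUSG00000003849, chromosome 8 from 107388225 to 107403206, minus strand) encodes a quinone reductase and is the usual reporter of NRF2 activity. Its counts were 191, 165 and 184 in control pools, then 201, 270 and 168 with quercetin. Control pools lay within a narrow range, 19.8 to 21.4 CPM, while quercetin pools were at 25.2, 29.6 and 19.8 CPM. Quercetin replicates 1 and 2 were above every control pool, and quercetin replicate 3 was just under the lowest one. Its log2 fold change of 0.27 (standard error 0.21) is a fold of 1.20 with a 95% interval from 0.865 to 1.67 (edgeR quasi-likelihood, Benjamini-Hochberg adjusted p = 0.988). An exact permutation test of its log2 CPM, two-sided, gave p = 0.4, where 3 pools against 3 cannot go below 0.1. Leaving out 1 pool at a time moved its log2 fold change between 0.12 (without quercetin replicate 2) and 0.41 (without quercetin replicate 3).

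*Hmox1* (ENSMUSG00000005413, chromosome 8 from 75093621 to 75100589, plus strand), the inducible heme oxygenase that opens the heme ring, was hardly detected. It had 0, 7 and 0 counts in control pools against 3, 0 and 0 with quercetin, so the highest value was in a control pool and 4 of the 6 pools were at 0. No direction can be read at this depth.

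*Srxn1* (ENSMUSG00000032802, chromosome 2 from 152105516 to 152111376, plus strand) encodes sulfiredoxin, which restores overoxidized peroxiredoxins. It had 0 of 51970856 counts over the 6 pools, which allows a level of up to 0.0577 CPM over all pools, and in a single pool up to 0.302 to 0.381 CPM. Among the genes of its substrates, *Prdx1* was abundant and *Prdx3* was not. *Prdx1* had 25749 to 49840 counts per pool (15.4% of its sequence words of 31 bases also occur in other annotated genes), at 3510 ± 506 CPM in control and 4124 ± 1242 CPM in quercetin pools (SD, n = 3), and the groups overlapped. *Prdx3*, the mitochondrial peroxiredoxin, was at 4.82 ± 0.309 and 5.01 ± 1.68 CPM (SD, n = 3). Of the 4 peroxiredoxin genes of this list 3 could be tested, and 0 passed the adjusted or the unadjusted threshold. Of all tested genes 4.03% passed the unadjusted one. The median log2 fold change of the 3 was 0.054, beside -0.026 for all tested genes.

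*Hmox2* (ENSMUSG00000004070, chromosome 16 from 4726361 to 4766742, plus strand), the heme oxygenase gene that most cells express without induction, had more counts than *Hmox1* in every pool. Counts were 78, 84 and 88 in control pools and 59, 73 and 68 with quercetin, or 9.58 ± 0.727 and 7.80 ± 0.355 CPM (SD, n = 3). Every quercetin pool was under every control pool with TMM, with DESeq2's size factors and by library size alone, as were the pools of 5.17% of all tested genes with TMM. Its log2 fold change was -0.30 with a standard error of 0.22 and a 95% interval of the fold from 0.576 to 1.15 (edgeR quasi-likelihood, Benjamini-Hochberg adjusted p = 0.988). Of its exon length 40.2% overlaps *Cdip1* on the other strand, and the sources used here do not give whether counting used the strand. *Cdip1* had 20, 124 and 148 counts in control pools against 101, 126 and 102 with quercetin. Control replicate 1 was the lowest control pool for both genes. The part of *Cdip1* reads in the *Hmox2* counts was not tested.

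Levels of different genes were compared per kilobase of exon, on the scale of CPM per kilobase. *Nqo1* was the highest of the 10, at 13.3 ± 0.515 in the control pools (SD, n = 3) and 12.7 to 19.1 in the quercetin pools, followed by *Nfe2l2* at 9.02 ± 0.641 and 10.8 ± 1.28. *Hmox2* came next at 4.32 ± 0.328 and 3.52 ± 0.160, then *Nfe2l1* at 3.54 ± 0.291 and 3.05 ± 0.249, and the ranges of these neighbours met in the quercetin pools (3.33 to 3.61 against 2.88 to 3.34) but not in the control pools. *Mafg* and *Bach1* averaged 1.18 and 1.10 over all pools, the first with an SD above its mean in control pools (0.965 against 0.577). *Mafk*, *Hmox1* and *Keap1* averaged between 0.087 and 0.285, and *Srxn1* was at 0. Among all genes with at least 1 read, *Nqo1* and *Nfe2l2* stood at percentiles 89.0 and 85.9 by this level, and *Keap1* at 26.9.

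Over the 6 members tested, 4 had a log2 fold change above 0 and 2 below, with a median of 0.14, where 46.4% of all tested genes were above 0 and their median was -0.026. By library size alone these medians were 0.053 and -0.11. The median of the members moved with single pools. It was 0.058 without quercetin replicate 3, 0.075 without quercetin replicate 2 and 0.085 without control replicate 3, and was 0.0070 over the 5 members with at least 10 counts in every pool, a filter that removes *Mafg*. In 1 member the pools did not overlap with quercetin higher and in 1 with quercetin lower, beside 10.6% of all tested genes in either direction. By library size alone the tally of the members was 0 higher and 2 lower (*Nfe2l1* and *Hmox2*).

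**Figure D2:**
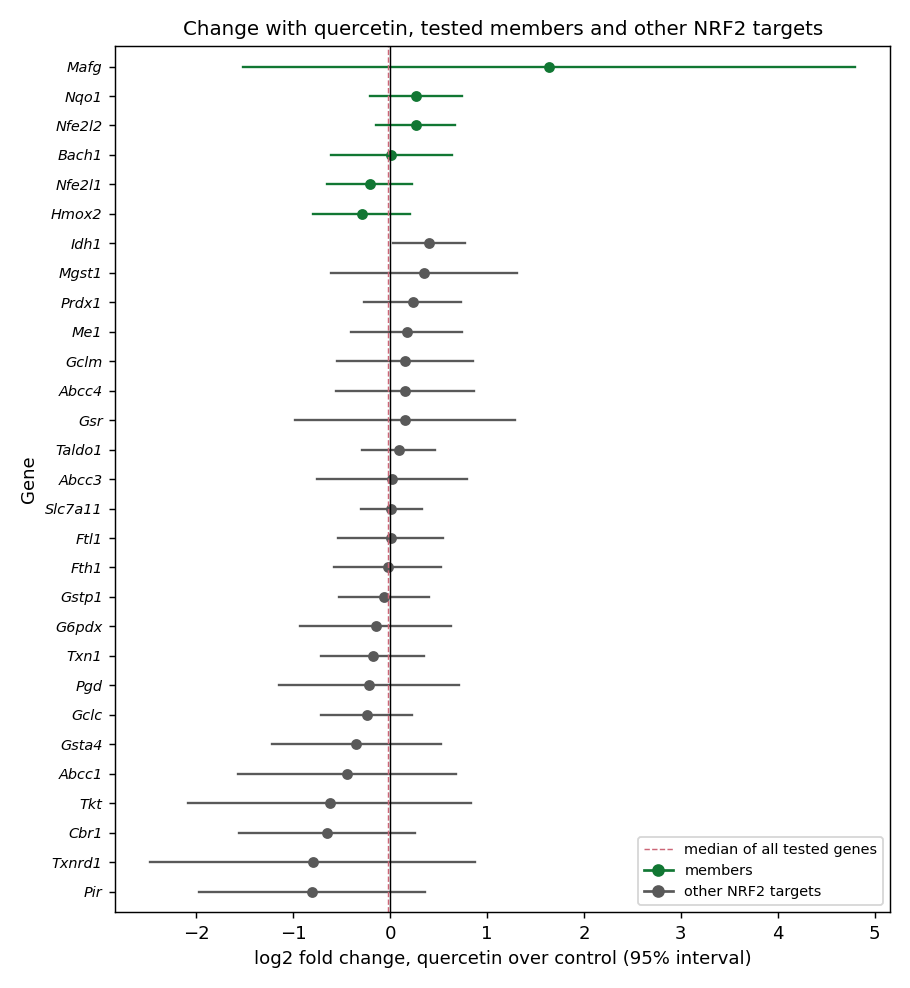
Log2 fold change, quercetin over control, with its 95% interval for the 6 testable members (green) and the 23 testable other NRF2 targets (grey), where a dashed line marks the median of all tested genes at -0.026. Every interval except that of *Idh1* includes 0, and *Mafg* has the widest, from -1.52 to 4.80.

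A wider list of 42 other genes known as NRF2 targets was examined with the same test. Enough reads were found for 23 of them, and 8 had no read in any pool. Named after the fact, the glutathione transferase genes *Gsta1* and *Gsta3* and the aldehyde dehydrogenase gene *Aldh3a1* were among those at 0. The adjusted threshold was passed by 0 genes of this list in edgeR's quasi-likelihood test, and by 0 in DESeq2, edgeR's likelihood ratio test and limma-voom. Among the 23, 1 had an unadjusted p under 0.05, beside 4.03% of all tested genes. Log2 fold changes were above 0 for 11 and below 0 for 12, with a median of -0.027. That median was -0.15 without quercetin replicate 1 and -0.094 without control replicate 2, and turned to 0.0093 without control replicate 1.

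*Idh1*, the cytosolic isocitrate dehydrogenase that makes NADPH, was the gene with the unadjusted p under 0.05. It had 833, 600 and 857 counts in control pools against 907, 1138 and 903 with quercetin, or 87.3 ± 13.3 and 115 ± 9.33 CPM (SD, n = 3), and the groups did not overlap, as for 5.42% of all tested genes with quercetin higher. On the log2 scale the difference was 0.40 (standard error 0.16, edgeR quasi-likelihood, unadjusted p = 0.0394, adjusted p = 0.988). The unadjusted threshold was lost by library size alone, in edgeR's likelihood ratio test, with the replicate number as a block, and without control replicate 1 or 2 or quercetin replicate 1 or 2. For the next 3 in order of p, every quercetin pool lay under every control pool in CPM, for *Cbr1* not by library size alone, beside 5.17% of all tested genes with quercetin lower. They were *Cbr1*, a carbonyl reductase gene, at 12 to 18 counts in control pools against 7 to 11 with quercetin, *Pir*, which encodes pirin, at 12 to 15 and 3 to 10, and *Gclc*, which encodes the catalytic subunit for the first step of glutathione synthesis, at 140 to 172 and 108 to 148. The log2 fold changes were -0.65 for *Cbr1*, -0.81 for *Pir* and -0.24 for *Gclc*, and none had an unadjusted p under 0.05.

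Other targets of glutathione and thioredoxin metabolism are named here after their values were seen. *Slc7a11*, the cystine carrier gene that supplies glutathione synthesis, had a log2 fold change of 0.01, *Gclm*, the modifier subunit partner of *Gclc*, 0.16, and *Gsr*, glutathione reductase, 0.15, with standard errors of 0.14, 0.31 and 0.50 in that order. *Txnrd1*, the cytosolic thioredoxin reductase gene, had 198, 48 and 179 counts in control replicates 1, 2 and 3 and 28, 28 and 179 in quercetin replicates 1, 2 and 3. The pools low in *Txnrd1* were control replicate 2 and quercetin replicates 1 and 2, which are the pools in which *Mafg* had 79 counts or more. This match was seen after the fact. How many of all genes divide the pools in the same way was not counted, and a relation between the genes was not tested. The estimate was -0.80 on the log2 scale, with a standard error of 0.74 (edgeR quasi-likelihood, Benjamini-Hochberg adjusted p = 0.988).

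Quercetin replicate 3 decided how many of these targets passed without adjustment. Without it, 5 of the 23 had an unadjusted p under 0.05 in place of 1, beside 1563 of the 12258 genes tested in that fit. These were named after their values were seen. *Idh1* was higher, and *Txnrd1* (log2 fold change -2.28), *Abcc1* (-1.24), *Gsta4* (-0.84) and *G6pdx* (-0.63) were lower with quercetin, and the adjusted p of the 5 ran from 0.238 to 0.377 (edgeR quasi-likelihood). *Abcc1* encodes an exporter of glutathione conjugates and *G6pdx* the first enzyme of the pentose phosphate pathway.

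**Figure D3:**
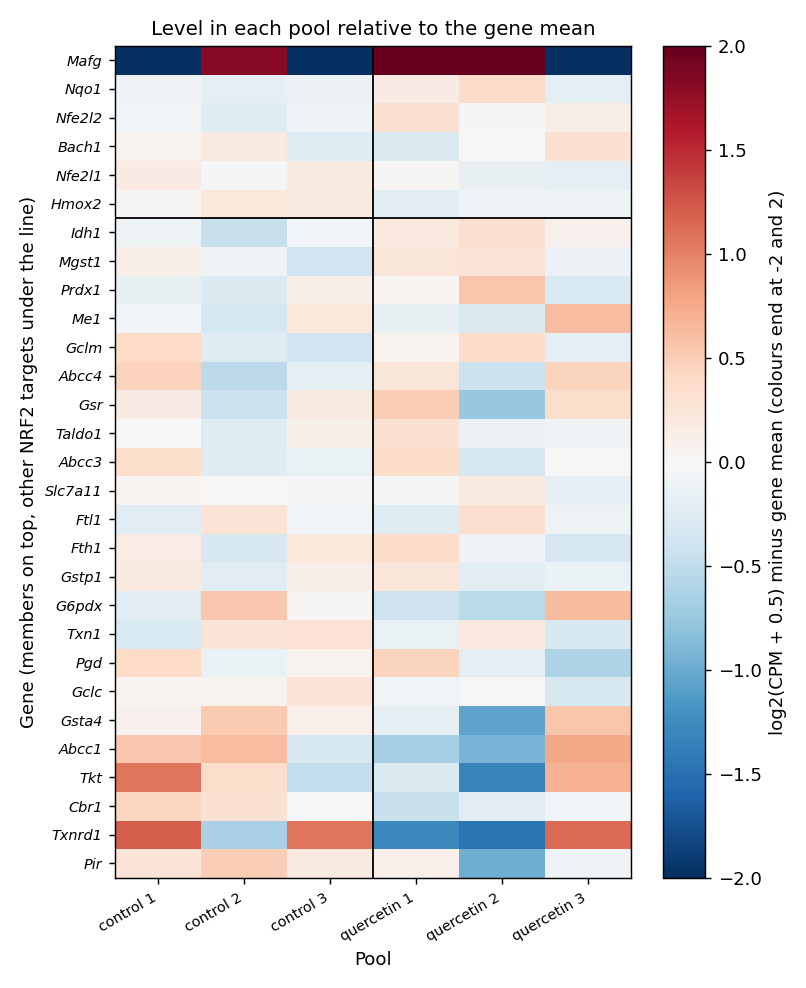
Level of the 6 testable members (top) and the 23 testable other NRF2 targets in each of the 6 pools, as log2(CPM + 0.5) minus the gene's mean, with red above and blue below the mean and colours ending at -2 and 2. *Hmox2* is below its mean in the 3 quercetin pools, and *Mafg* and *Txnrd1* are of opposite colour in every pool. The latter was seen after the fact, and a relation between the genes was not tested.

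**Figure D4:**
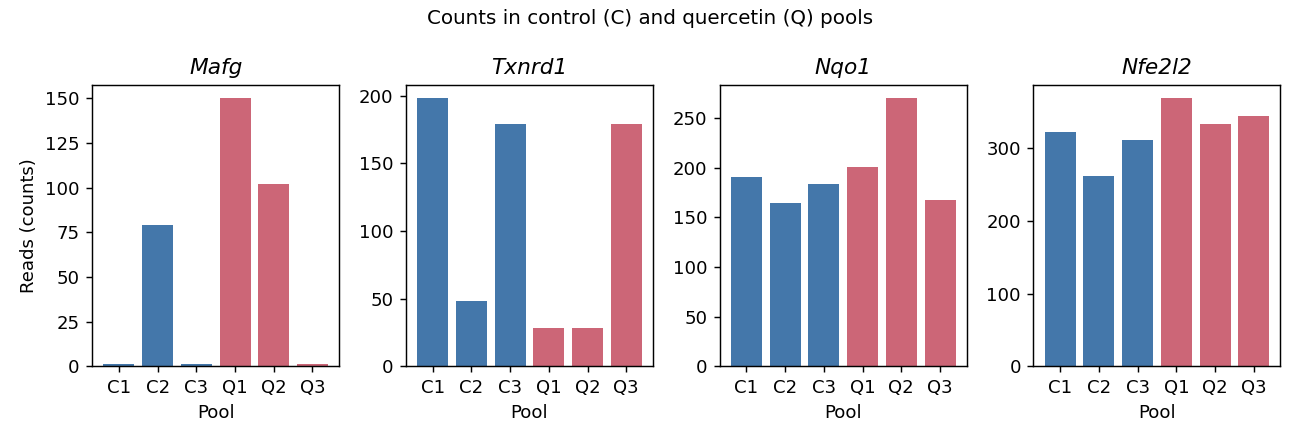
Read counts of *Mafg*, *Txnrd1*, *Nqo1* and *Nfe2l2* as bars for the 3 control (C, blue) and 3 quercetin (Q, red) pools, numbered by replicate. *Mafg* is at 1 count in C1, C3 and Q3, where *Txnrd1* is at 179 to 198 counts, while *Nqo1* and *Nfe2l2* are present in every pool. The match of *Mafg* and *Txnrd1* was seen after the fact and was not tested.

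Most genes of the machinery around NRF2 were present, and none passed the test. Of 23 other regulators 20 were tested, and 0 passed the adjusted or the unadjusted threshold in edgeR's quasi-likelihood test. The unadjusted one was passed by 4.03% of all tested genes. For 7 regulators the log2 fold change was above 0 and for 13 below, with a median of -0.059. Of all tested genes 46.4% were above 0, and their median was -0.026. *Ep300*, a coactivator acetyltransferase gene, had 401 to 535 counts in control pools against 381 to 397 with quercetin (log2 fold change -0.28, standard error 0.17). *Cand1*, which exchanges the substrate receptors of cullin ligases, had 511 to 652 and 457 to 497 counts (log2 fold change -0.23). *Syvn1*, which encodes the ubiquitin ligase HRD1 of the endoplasmic reticulum, had 119 to 139 and 84 to 108 counts (log2 fold change -0.31), and was the 1 of 20 tested regulators whose pools did not overlap with TMM, beside 10.6% of all tested genes. By library size alone *Amer1*, named after its values were seen, and *Ep300* also separated, both with quercetin lower. *Bach2*, the relative of *Bach1*, had 234, 268 and 238 counts in control pools against 149, 128 and 281 with quercetin, so quercetin replicate 3 stood above all controls and the other two below every control pool.

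For *Bach2* the log2 fold change was -0.37 (standard error 0.31), and without quercetin replicate 3 it was -0.80 (edgeR quasi-likelihood, unadjusted p = 0.00773, adjusted p = 0.252). *Nfe2l3*, another relative of NRF2 named after its values were seen, was present at 109 to 208 counts per pool, with a log2 fold change of 0.22 (standard error 0.28).

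Proteasome subunit genes, which NFE2L1 is known to drive, had estimates on both sides of 0. Of 31 listed 30 were tested, 0 passed the adjusted threshold and 1 the unadjusted one in edgeR's quasi-likelihood test, beside 4.03% of all tested genes. Log2 fold changes were above 0 for 13 and below for 17, with a median of -0.028, where 46.4% of all tested genes were above 0. *Psma7*, an alpha subunit of the core, had 1644, 1938 and 1864 counts in control pools against 1103, 1310 and 1424 with quercetin, so its log2 fold change was -0.48 with a standard error of 0.15 (edgeR quasi-likelihood, unadjusted p = 0.0113, adjusted p = 0.988). *Psmd1*, a subunit of the regulatory cap, was at 468 ± 39.7 CPM in control and 572 ± 24.4 CPM with quercetin (SD, n = 3). Its log2 fold change was 0.29 with a standard error of 0.13. With TMM its pools did not overlap, but by library size alone they did. The pools of *Psma7* did not overlap under any of the scalings. With TMM the pools of 1 of the 30 did not overlap with quercetin higher and of 2 with quercetin lower, beside 10.6% of all tested genes in either direction.

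Heme, the substrate of both heme oxygenases and the ligand of BACH1, has its own genes. Of 12 genes of heme synthesis and breakdown 10 were tested. In edgeR's quasi-likelihood test 0 passed either threshold, beside 4.03% of all tested genes at the unadjusted one. Log2 fold changes were above 0 for 6 and below for 4, with a median of 0.11. Of all tested genes 46.4% were above 0, and their median was -0.026. The pools overlapped for each of the 10, where those of 10.6% of all tested genes did not. *Alas1*, which catalyses the first step of heme synthesis, was at 77.6 ± 10.7 and 89.4 ± 13.9 CPM (SD, n = 3). *Blvra*, the biliverdin reductase that acts after heme oxygenase, was at 213 ± 19.8 and 245 ± 24.7 CPM (SD, n = 3).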

How the data were processed

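RNA was sequenced from 6 pools of M II oocytes (smart-seq HT libraries), grouped by the sample labels. The deposited values are counts, whole reads per Ensembl gene without normalization. The paper names Hisat2 and GRCm38.91, while the submitters' processing notes name CASAVA 1.8 and TopHat2 2.0.6 with mm10. The counting program and its treatment of strand and of reads matching several genes are not given in the sources used here. Gene names matched 53274 of 53465 identifiers, and coordinates came from GENCODE M21 (GRCm38).

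Counts were filtered with filterByExpr (minimum count 10), scaled by TMM and tested with edgeR 4.0.16 in R 4.3.3 (quasi-likelihood test, no covariate), with Benjamini-Hochberg adjustment over 11842 genes. The fit was also run on simulated counts, drawn for independent pools with the spread estimated from these data. Such counts cannot show the effect of shared mice or of a single deviating pool. The standard error is the log2 fold change divided by the square root of F, and intervals use the t distribution. Level per kilobase is CPM over exon length. Nothing states that the pools came from separate cultures, so p-values measure only the spread between pools. Sharing of sequence was the percent of words of 31 bases found in other genes' transcripts. The 10 genes and the other lists were chosen with earlier results of these data known. Named from the other lists were the 4 regulators, 4 further targets and 2 genes of each remaining list with the smallest p, set markers, and genes marked as chosen after their values were seen. Alternatives were other scalings and filters, DESeq2 1.42.0, limma-voom (limma 3.58.1), edgeR's likelihood ratio test, the replicate number as a block, and leaving out each pool.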

Additional observations from a re-analysis of the deposited data

How the results depend on the processing

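No member passed an adjusted p of 0.05 in any of the 15 fits that could test it, which covered both other scalings, both other filters, DESeq2, limma-voom, edgeR's likelihood ratio test, the replicate block and each pool left out. The number of all genes called went from 0 to 3 without a filter, 17 with DESeq2, 18 with edgeR's likelihood ratio test, and 0 to 7 in the fits without 1 pool (7 without quercetin replicate 1, 6 without quercetin replicate 3). The log2 fold change of *Bach1* turned to -0.065 by library size alone, and lay between -0.16 and 0.16 in the fits without 1 pool. The median log2 fold change of the members was 0.0070 with at least 10 counts in every pool, because *Mafg* was not tested there, and that of proteasome subunits was -0.12 by library size alone, a scaling that moved the median of all tested genes from -0.026 to -0.11.

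Control and quercetin pools share the numbers 1 to 3. Same-numbered pools correlated by 0.296, 0.101 and -0.030 in their deviations from the group means. For differently numbered pools the correlations ran from -0.299 to 0.176. These ranges overlap, and the pools were not taken as pairs. *Nnt* and *Efcab3* were lowest in both pools numbered 2, the *Cbx3* pseudogenes in both pools numbered 1 and *Acp2* in both pools numbered 3. Among oocyte markers, *Zp2* and *Zp3* were lowest in both pools numbered 1. For *Mos* and *Dazl*, named after their values were seen, the lowest control and quercetin pools had different numbers. Whether same-numbered pools share mice, and so are not independent, was not tested. With the replicate number as a block the log2 fold change was 0.26 for *Nfe2l2* and 2.21 for *Mafg*, 492 genes in place of 477 had an unadjusted p under 0.05, and 0 genes were called. Depth limits *Keap1*, *Mafk*, *Hmox1* and *Srxn1*, which did not pass the filter on low counts. Whether few or no reads of these genes meant little mRNA in the oocytes was not tested.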

Other observations

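The genes that, like *Mafg*, had a pool at 3 counts or fewer and a pool at 50 or more in both groups were listed after the data were seen, as values only. *Nnt*, which encodes the mitochondrial transhydrogenase that makes NADPH, had 111, 0 and 66 counts in control replicates 1, 2 and 3 and 208, 0 and 81 in quercetin replicates 1, 2 and 3, so both pools numbered 2 were at 0. *Efcab3* had 41, 3 and 68 counts and 41, 0 and 63, again with both pools numbered 2 lowest. The pseudogenes *Cbx3-ps6* and *Cbx3-ps7* had 0 or 1 count in both pools numbered 1 and 62 to 152 counts in the other four. *Acp2*, a lysosomal acid phosphatase gene, had 579, 44 and 1 counts in control and 546, 634 and 3 in quercetin pools, lowest in both pools numbered 3. *Arl5c*, *Dcpp2*, *Gm26920* and *Mafg* were split in ways that did not follow the replicate number. No explanation of these splits was tested.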
